A study of Homo sapiens with 4 samples.

Results

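The genes described here are OAZ1, DOHH, GAMT and MTAP, 4 of the 78724 gene rows in a table of ribosome footprint counts from human A375 melanoma cells. They were chosen by name and place, as genes of polyamine, hypusine, creatine and methylthioadenosine metabolism whose rows held reads, and with earlier results for OAZ1 and GAMT in view. The p-values below therefore describe the fit and are not independent evidence. A gene under 20 reads in all was to be given without a test, and none fell under that limit: the totals over the libraries were 521 reads for OAZ1, 224 for MTAP, 112 for DOHH and 66 for GAMT.

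The study concerns arginine withdrawal in cancers without ASS1, an enzyme that cells need to make their own arginine. A375 is an established melanoma line, and the labels name no genotype or transgene. Both groups were A375 cells held for 48 h, either in control medium or in medium made with the other amino acids but no L-arginine, with 2 libraries each. What the control medium contained, and whether the replicates were separate cultures, is not stated in the labels, and a p-value here reflects only how far these 4 libraries scatter, which may be technical scatter. Ribosome profiling sequences the stretch of mRNA that a ribosome shields from nuclease, so a footprint count follows both the amount of an mRNA and how heavily it is translated. No matched RNA measurement was used here, and these cannot be told apart.

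Polyamines are small positively charged molecules that dividing cells need. Their synthesis starts from ornithine, which can be made from arginine, and ornithine decarboxylase turns it into putrescine, the precursor of spermidine and spermine. OAZ1 encodes ornithine decarboxylase antizyme, which binds that enzyme and sends it to the proteasome; its full reading frame is reached through a programmed ribosomal frameshift that polyamines favour. MTAP encodes the phosphorylase that clears methylthioadenosine, the by-product of spermidine and spermine synthesis, and returns its parts to adenine and methionine. DOHH encodes deoxyhypusine hydroxylase, which finishes hypusine, a spermidine-derived residue of the translation factor eIF5A. GAMT encodes guanidinoacetate methyltransferase, which makes creatine from a precursor that carries the guanidino group of arginine.

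In arginine-free medium, footprints on OAZ1 and DOHH rose, those on GAMT fell, and those on MTAP did not pass the test. Levels are given as CPM, the reads for each 1000000 on the tested rows after scaling of the library totals by TMM factors. The change was 2.7-fold for OAZ1, 3.32-fold for DOHH and 5.05-fold in the lower direction for GAMT, by the fitted log2 fold changes. Over all 2526 tested rows, 16% were called higher and 16.9% lower in arginine-free medium, or 33% in either direction. The libraries of the media did not overlap in 3 of the 4 genes, and in 67.3% of all tested rows (33.1% with arginine-free medium higher and 34.2% lower). A call of 3 genes among 4 is read against that background and against the way the genes were chosen, and no more is drawn from it.

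**Figure D1:**
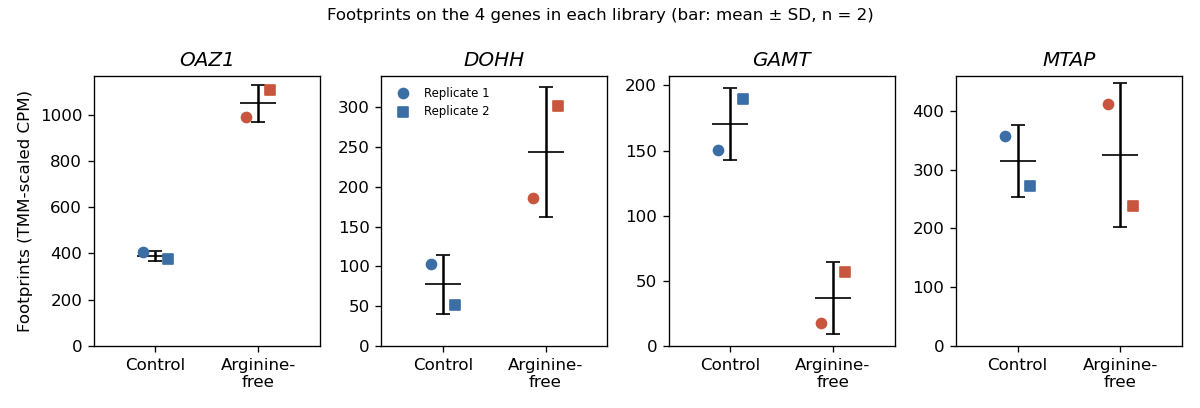
Footprints on OAZ1, DOHH, GAMT and MTAP in CPM (reads for each 1000000 reads on the tested rows, with library totals scaled by TMM factors; vertical axis, from 0 and separate for each gene) in control and arginine-free medium. Circles are replicate 1 and squares replicate 2, and the bars give the mean ± SD of 2 libraries. The groups do not overlap for OAZ1, DOHH and GAMT and overlap for MTAP.

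Reads could be assigned to these genes only with some care. The coordinates of the table are those of GRCh38, while the submitters' processing notes name GRCh37, and many rows of broadly expressed genes were at 0. A row was therefore read as its gene only inside stretches where most neighbouring genes held reads, with ends taken from an earlier look at these data. In the chromosome 19 stretch, from ATP5F1D to CHAF1A, 14.3% of 98 protein-coding rows were at 0, and in the chromosome 9 stretch, from VLDLR to VCP, 35.4% of 130 were. Outside the stretches the share was 72.7% of 17914. Library totals ran from 105004 to 234766 counts, so a count of 0 would allow up to 3 reads, which over all rows is 28.6 CPM in control replicate 1, the library with the smallest total, and 12.8 CPM in arginine-free replicate 1, the one with the largest. Replicates differed by more than counting noise, with a chi-square per degree of freedom of 5.04 between the control libraries and 8.96 between the arginine-free libraries.

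Melanocytic markers, checked against the labelled cell type, held fewer reads in arginine-free medium. Of the 9 listed, 8 had a row, 4 of those were at 0 (MITF, TYR, PMEL and SOX10), and 3 lay in a stretch. Their summed reads were 23 and 38 in control and 1 and 2 in arginine-free medium, and most were on TYRP1 and MLANA. The 4 fibroblast markers were all listed at 0, 3 keratinocyte markers summed to between 0 and 7 reads a library and 4 leukocyte markers to at most 1. No marker of these last 3 lists lay in a stretch, and neither did MITF, TYR, PMEL or SOX10. Their counts cannot be read as those of the genes, and a 0 there does not show absence. The part of such markers in the changes below was not tested.

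The DNA just before the start of a gene is shown for the 2 genes that rose together and, beside them, for MTAP. The RefSeq tables (GRCh38.p14) held the 250 bases before the annotated start for 3 of the 4 genes, OAZ1, DOHH and MTAP. They are written 5′ to 3′ on the strand of the gene, at chr19:2269236-2269485 (plus), chr19:3500675-3500924 (minus) and chr9:21802386-21802635 (plus). Capitals mark matches to the motifs searched on both strands, which were the E-box CACGTG, the CCAAT box, the TATA box TATAAA and TGATGNAA, the core of the amino acid response element.
OAZ1: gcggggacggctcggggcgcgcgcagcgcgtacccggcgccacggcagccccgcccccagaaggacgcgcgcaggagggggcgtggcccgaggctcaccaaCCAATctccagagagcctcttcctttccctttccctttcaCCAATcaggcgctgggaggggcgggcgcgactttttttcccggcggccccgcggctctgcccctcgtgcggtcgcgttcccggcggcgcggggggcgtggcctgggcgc
DOHH: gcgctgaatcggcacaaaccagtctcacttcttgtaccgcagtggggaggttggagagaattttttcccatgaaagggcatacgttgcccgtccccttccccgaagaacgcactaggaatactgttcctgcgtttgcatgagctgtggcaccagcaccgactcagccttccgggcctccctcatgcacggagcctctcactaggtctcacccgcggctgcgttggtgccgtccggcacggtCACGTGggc
MTAP: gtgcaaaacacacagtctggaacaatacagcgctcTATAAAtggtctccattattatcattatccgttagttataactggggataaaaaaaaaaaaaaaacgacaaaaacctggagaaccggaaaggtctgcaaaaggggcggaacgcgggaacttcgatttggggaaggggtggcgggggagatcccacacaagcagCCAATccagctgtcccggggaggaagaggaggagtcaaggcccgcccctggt
OAZ1 held 2 CCAAT matches, 149 and 109 bases before the RefSeq start, and DOHH held 1 CACGTG match 9 bases before its own. The OAZ1 window ends at 2269485, while the counted row of OAZ1 starts at 2269520, so its RefSeq start and row start differ. MTAP held 1 CCAAT match at 52 bases and 1 TATAAA match at 215 bases. No TGATGNAA match was in these windows, and OAZ1 and DOHH shared none of the 4 motifs. Of 35116 windows of this length, 6.34% held CACGTG, 32% CCAAT, 10.7% TATAAA and 3.14% TGATGNAA. The G and C content was 75.2% for OAZ1, 60% for DOHH and 50% for MTAP. A match is a description of the letters and not a bound site, and the footprint counts do not measure the promoters.

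OAZ1, the antizyme, lies on the plus strand of chromosome 19 at 2269520 to 2273490 (GRCh38, identifier ENSG00000104904), and its row joins 5 exon blocks of 1149 bases. Of these, 220 bases, all in exon block 1, are shared with a second row (ENSG00000273734) that spans a longer transcript and held 0 reads. Under the counting options in the file header a read touching both rows goes to neither, so by the table's coordinates the OAZ1 count comes almost wholly from exon blocks 2 to 5, which are 146, 173, 86 and 519 bases long. Whether reads placed on GRCh37 fall on these GRCh38 exons base by base was not checked, for OAZ1 or for the other 3 genes, and the exon lengths used below carry the same doubt. The count is 1 number for the gene, so footprints before and after the frameshift could not be separated.

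OAZ1 held 43 and 73 reads in the control libraries, against 229 and 176 without arginine. In CPM these were 405 and 374 in control and 992 and 1105 without arginine, so the lower arginine-free library stood well above the higher control library. The means were 390 ± 21.8 and 1049 ± 80.4 CPM (SD, n = 2 each). The log2 fold change was 1.43 (SE 0.22, 95% interval 0.96 to 1.90, edgeR adjusted p = 0.000247). OAZ1 was the 4th highest of the 55 tested rows of the chromosome 19 stretch and the 226th highest of all 2526. It passed the test under all 12 other ways of processing tried, with log2 fold changes from 1.19 to 1.56.

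DOHH, the hydroxylase of hypusine, lies on the minus strand of chromosome 19 at 3490821 to 3500674 (ENSG00000129932), with 5 exon blocks of 1794 bases that no other row shares. It held 11 and 10 reads in control medium, with exact 95% counting intervals from 5.49 to 19.7 and from 4.80 to 18.4 reads. In arginine-free medium it held 43 and 48 reads, with intervals from 31.1 to 57.9 and from 35.4 to 63.6. Raw reads therefore separated the groups, although the control totals differed in depth.

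Scaled for depth, DOHH stood at 104 and 51.3 CPM in control medium and at 186 and 301 CPM in arginine-free medium. Both arginine-free libraries were above both control libraries, and the spread within each group was wide, with means of 77.5 ± 37 and 244 ± 81.5 CPM (SD, n = 2 each). The log2 fold change was 1.73 (SE 0.41, 95% interval 0.86 to 2.61, edgeR adjusted p = 0.00542), the 2nd highest of the 55 rows of the stretch. The call rests on control replicate 2: without that library the log2 fold change was 1.23 and did not pass (edgeR adjusted p = 0.0729). It also did not pass with DESeq2 (log2 fold change 1.79, adjusted p = 0.064).

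GAMT, which completes creatine, lies on the minus strand of chromosome 19 at 1397026 to 1401570 (ENSG00000130005), with 6 exon blocks of 2243 unshared bases. Its reads numbered 16 and 37 in the control libraries, against 4 and 9 without arginine. The exact 95% counting intervals were 9.15 to 26 and 26.1 to 51 reads in control, and 1.09 to 10.2 and 4.12 to 17.1 in arginine-free medium. Arginine-free replicate 1 had the fewest reads of the 4 libraries in spite of the largest total.

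In CPM, GAMT stood at 151 and 190 in control and at 17.3 and 56.5 in arginine-free medium, and the groups did not overlap. The log2 fold change was -2.34 (SE 0.48, 95% interval -3.36 to -1.31, edgeR adjusted p = 0.00206), the 2nd lowest of the 55 rows of the stretch and the 105th lowest of all 2526. The size depends on which arginine-free library is kept: -1.57 without replicate 1 (edgeR adjusted p = 0.013) and -3.23 without replicate 2 (edgeR adjusted p = 0.000516). With DESeq2 the call ended (log2 fold change -2.18, adjusted p = 0.0732).

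MTAP, which clears methylthioadenosine, lies on the plus strand of chromosome 9 at 21802636 to 21937651 (ENSG00000099810). Its row joins 9 exon blocks of 12845 bases, of which the blocks numbered 8 and 9 hold 5106 and 6644. Exon blocks 2, 3, 4 and 7, of 87, 59, 168 and 123 bases, are shared in full with other rows that held 0 reads. So are 146 bases of block 1 and 66 of block 9, and these 649 bases could give the row no reads. Coding bases were not marked, so the part of the coding sequence lost this way was not measured and may exceed the part of the row. The level of MTAP, its fold change and its ratio to OAZ1 carry that limit.

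MTAP held 38 and 53 reads in the control libraries, against 95 and 38 without arginine. That is 358 and 272 CPM against 411 and 239 CPM, so the highest and the lowest library were both arginine-free. The means were 315 ± 61 and 325 ± 122 CPM (SD, n = 2 each), and the log2 fold change was 0.09 (SE 0.30, edgeR adjusted p = 0.839). Its 95% interval, from -0.56 to 0.75, leaves room for a moderate change in either direction. The sign followed single libraries, at -0.31 when arginine-free replicate 1 was left out and 0.48 when replicate 2 was, and neither passed. In the chromosome 9 stretch, 13.1% of 61 tested rows were called higher and 14.8% lower, and the median log2 fold change there was 0.08.

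**Figure D2:**
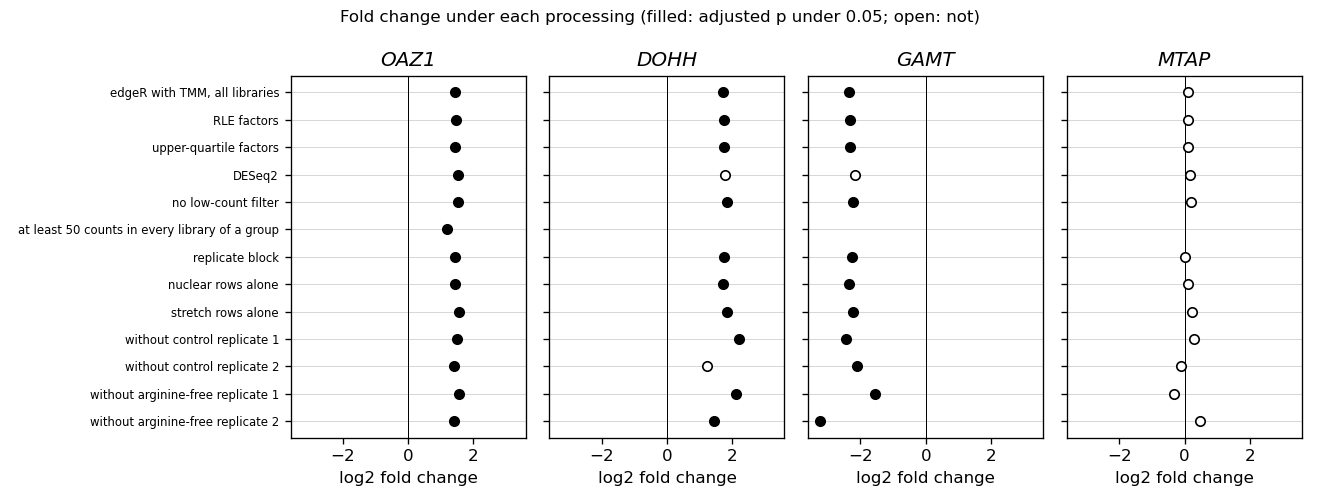
Log2 fold change (arginine-free over control; horizontal axis) of the 4 genes under the main processing and each alternative (vertical axis), filled where the adjusted p is under 0.05 and open where not. OAZ1 is filled throughout, DOHH is open with DESeq2 and without control replicate 2, GAMT is open with DESeq2, and MTAP is open throughout and lies on either side of 0.

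Per kilobase of unshared exon, a scale that divides CPM by exon length, OAZ1 was the highest of the 4 in every library. It stood at 436 and 403 CPM per kilobase in control and 1068 and 1190 in arginine-free medium. GAMT came next in control medium, at 67.2 and 84.6, above DOHH at 57.8 and 28.6. MTAP, at 29.4 and 22.3, overlapped DOHH there. In arginine-free medium DOHH stood at 104 and 168 CPM per kilobase, above MTAP at 33.7 and 19.6, while GAMT at 7.72 and 25.2 overlapped MTAP. DOHH was thus below GAMT in both control libraries and above it in both arginine-free libraries. Bases outside the coding sequence count in these lengths and usually carry few footprints. The place of MTAP rests on its length of 12196 unshared bases, against 929 for OAZ1, 1794 for DOHH and 2243 for GAMT. In CPM alone, MTAP at 358 and 272 in control stood above DOHH (104 and 51.3) and GAMT (151 and 190). Without arginine, at 411 and 239, it stood above GAMT (17.3 and 56.5) and overlapped DOHH (186 and 301). Its order per kilobase against DOHH and GAMT is therefore not interpreted.

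Ratios between the genes inside a library need no scaling for depth. There were 2.69 and 1.97 reads on OAZ1 for each read on GAMT in control medium, against 57.2 and 19.6 in arginine-free medium. The exact 95% counting intervals ended at 5.11 and 3.02 in control and began at 22.1 and 10.1 in arginine-free medium. DOHH had 0.688 and 0.27 reads per GAMT read in control and 10.8 and 5.33 in arginine-free medium. The reads on OAZ1 per read on DOHH showed no such separation, at 3.91 and 7.3 in control and 5.33 and 3.67 in arginine-free medium. OAZ1 over MTAP went from 1.13 and 1.38 to 2.41 and 4.63. Its intervals ended at 1.80 and 2 in control and began at 1.89 and 3.25 in arginine-free medium. Those of control replicate 2 and arginine-free replicate 1 thus overlapped. These intervals cover counting error only, since amplified fragments are not independent molecules. The ratios restate the changes of the single genes from the same reads, with earlier results for OAZ1 and GAMT in view. Their separation between the media, or the lack of it, is therefore no further evidence.

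**Figure D3:**
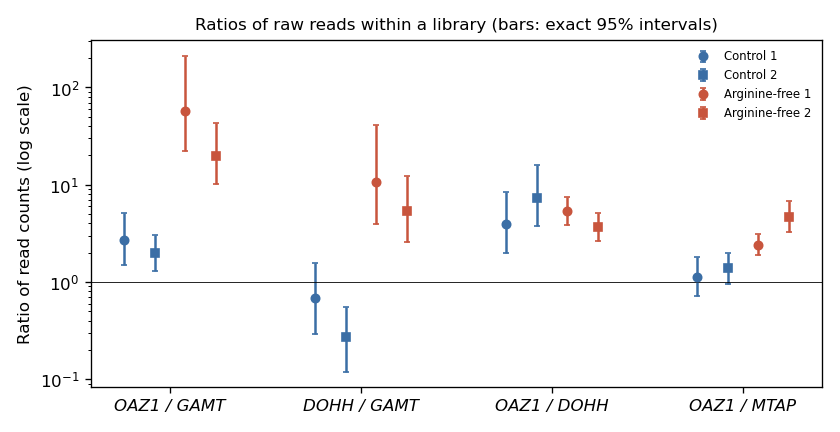
Ratio of raw read counts between pairs of the 4 genes (log-scaled vertical axis) in each of the 4 libraries, with exact 95% counting intervals. OAZ1 over GAMT is 1.97 and 2.69 in control and 19.6 and 57.2 in arginine-free medium, while OAZ1 over DOHH overlaps between the media.

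The genes next to them on chromosome 19 gave the local setting. GAMT lies between NDUFS7, a subunit of respiratory complex I that ends 1437 bases away, and DAZAP1, an RNA-binding protein gene that begins 5999 bases away. The log2 fold change of NDUFS7 was -0.06 (SE 0.26, edgeR adjusted p = 0.871) and that of DAZAP1 was 0.10 (SE 0.22, edgeR adjusted p = 0.751). Beyond them, PWWP3A held 26 reads and was not tested, and RPS15, of the small ribosomal subunit, stood at 0.42 (SE 0.25, edgeR adjusted p = 0.225). Of the genes beside DOHH, FZR1, an activator of the anaphase-promoting complex, stood at -0.93 (SE 0.36, edgeR adjusted p = 0.0616), and SMIM24, SMIM44 and TEKTIP1 held 2, 0 and 6 reads. The neighbours of OAZ1 were nearly empty, with 0 reads on AMH and JSRP1, 2 on PEAK3 and 3 on LINGO3. All reads on PEAK3, LINGO3, SMIM24 and TEKTIP1 were in control libraries, and none of these genes was tested. On chromosome 19, 4 of the 12 neighbouring genes had enough reads to be tested (FZR1, NDUFS7, DAZAP1 and RPS15), and 0 of these 4 passed the edgeR test after adjustment, with 1 (FZR1) at an unadjusted p under 0.05 and 0 of the same 4 passing with DESeq2, which gave the other genes no adjusted p. None beside OAZ1 was tested, and neither were differences between a gene and its neighbours.

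Over the whole chromosome 19 stretch, 20% of 55 tested rows were called higher and 18.2% lower, with a median log2 fold change of 0.18 and quartiles of -0.57 and 0.69. OAZ1 and DOHH were among the 11 higher rows and GAMT among the 10 lower rows. Without control replicate 2 the higher rows numbered 4 and the lower rows 9, and without control replicate 1 the lower rows numbered 6. DESeq2 called 4 higher and 3 lower.

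**Figure D4:**
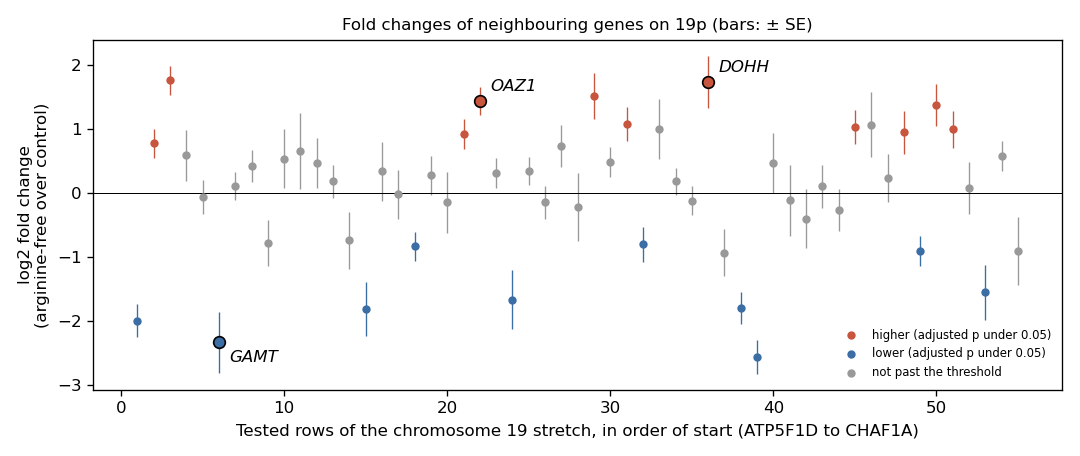
Log2 fold change (arginine-free over control, ± SE) of the 55 tested rows between ATP5F1D and CHAF1A on chromosome 19, in order of their start. DOHH at 1.73 and OAZ1 at 1.43 are the 2nd and 4th highest and GAMT at -2.34 is the 2nd lowest; red and blue mark the 11 higher and 10 lower rows.

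On chromosome 9, the coding neighbours of MTAP were sparse. CDKN2A, the cell cycle inhibitor gene that is often lost together with MTAP in tumours, held 0 and 2 reads in the control libraries, against 11 and 17 without arginine. The groups did not overlap in these raw reads, which are not scaled for depth. Among all tested rows, 67.3% did not overlap in CPM, 33.1% with arginine-free medium higher. The row of CDKN2A was under the filter on low counts and not tested. CDKN2B, IFNE and IFNA1 held 0 reads in all 4 libraries.

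The genes whose profile over the 4 libraries was nearest to each of the 4 were sought among 57 other protein-coding genes of the chromosome 5, 9 and 19 stretches with a mean count of at least 50. The measure was the root mean square distance between log2 CPM values centred on each gene's mean over the 4 libraries. Nearest to OAZ1 were MRPL36 of the mitochondrial ribosome, at 0.13, the lipid droplet coat gene PLIN2, at 0.15, and RPS6 of the small ribosomal subunit, at 0.18, where the median over the 57 was 0.65. Nearest to DOHH were MRPL36 (0.34), RPS6 (0.35) and the splicing factor gene SF3A2 (0.39), with a median of 0.82. Nearest to GAMT were HMG20B (0.34), ATP5F1D (0.36) and MFSD12 (0.41), with a median of 1.18. MTAP was nearest to SCAMP4 (0.18), BRIX1 (0.22) and DAB2 (0.22), with a median of 0.40. With 4 libraries in 2 groups, genes that lie near each other by this measure differ between the media by like amounts by construction.

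The other steps of these pathways could hardly be followed. Of 59 genes in 5 lists (polyamine synthesis and breakdown, methionine salvage, hypusine, creatine, and arginine and ornithine metabolism), 53 had a matched row, and only the 4 genes described here lay in a readable stretch. Of the remaining 49 rows, 34 were at 0, 9 held from 1 to 19 reads and 6 held 20 or more. Inside the stretches each list except arginine and ornithine metabolism thus held 1 gene, one of the 4 already described, and that last list held none, so the lists add no count of their own. Outside them 2 rows were tested, named here after their values were seen, and reads there may belong to another gene. The row at the place of ADI1, of methionine salvage, was lower, at -2.05 on the log2 scale (SE 0.57, edgeR adjusted p = 0.013), and that at SLC7A2, a carrier of cationic amino acids, stood at -0.63 (SE 0.42, edgeR adjusted p = 0.271). The row at the place of ODC1, the target of antizyme, held 25 reads and that of EIF5A, the protein that carries hypusine, 26. Those of OAZ2, in the polyamine list, and SLC6A8, in the creatine list, held 28 and 23. None of these was tested. DHPS, the enzyme before DOHH, and GATM, the enzyme before GAMT, had no matched row.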

How the data were processed

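The deposited values are raw counts, which the authors obtained by running featureCounts 2.0.1 on exons of the GENCODE 47 basic annotation with no strand option, per the file headers. Adapter trimming with cutadapt, the aligners Bowtie2 2.5.2 and TopHat2, and the build GRCh37 (hg19) appear in the submitters' processing notes. Ribosomal RNA was not depleted, per the labels' protocols. Exon lengths in bases come from the deposited table.

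Rows carry identifiers without symbols and were named by place against RefSeq genes of GRCh38.p14: each had to be the other's best overlap, with overlap over union of at least 0.5 where an end was shared and 0.75 otherwise. This named 38563 rows. No coordinates were converted between builds.

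All rows were fitted with edgeR 4.0.16 (R 4.3.3; TMM, filterByExpr, quasi-likelihood test), with Benjamini-Hochberg adjustment over the 2526 tested rows and a threshold of 0.05. Each SE was recovered from the F statistic, as the size of the log2 fold change divided by the root of F. DESeq2 1.42.0, other factors, filters, row sets, a replicate block and each library left out were alternatives. Named genes are the 4 genes, their 2 nearest coding rows on each side, list genes inside a stretch, and the 3 nearest profiles; list genes outside a stretch were to be given by counts alone. Outside this rule, ADI1, SLC7A2, ODC1, EIF5A, OAZ2, SLC6A8, DHPS and GATM were named after the values were seen. Cell type markers come from a list of their own. The genes and lists were chosen with earlier results of these data known.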

Additional observations from a re-analysis of the deposited data

How the results depend on the processing

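OAZ1 kept its direction and its side of the threshold under all 12 alternatives, from 1.19 to 1.56 on the log2 scale (edgeR or DESeq2 adjusted p from 3.4e-09 to 0.00323). DOHH did so under 9 of 11 and GAMT under 10 of 11. With DESeq2, DOHH stood at 1.79 and GAMT at -2.18 and neither passed, and the rows called numbered 162 higher and 147 lower over the table and 4 and 3 in the chromosome 19 stretch. With a filter of 50 counts in each library of either group, where DOHH, GAMT and MTAP were not tested, 138 rows were higher and 146 lower over the table, and 5 were lower in the stretch. With stretch rows alone, fewer by construction, 39 were higher and 46 lower. Leaving out 1 library at a time gave 1.23 to 2.22 for DOHH, which did not pass without control replicate 2, -3.23 to -1.57 for GAMT, which passed each time, and -0.31 to 0.48 for MTAP, which never passed. The same runs called 270 to 418 rows higher and 243 to 389 lower over the table, and 4 to 16 higher and 6 to 11 lower in the stretch; the low end of 243 and of 4 came without control replicate 2. The cause of these shifts was not tested.

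The labels do not say that same-numbered libraries are pairs, so the main fit held no block. The correlation of their deviations from the group means was -0.05 over 2526 rows. Counting noise in rows of few reads weakens such a correlation, so it cannot decide whether they were paired. With the replicate block, the log2 fold changes were 1.43 for OAZ1, 1.74 for DOHH, -2.25 for GAMT and 0.01 for MTAP, no call among them changed, and 354 rows were higher and 372 lower. For MTAP, the block and the run without a count filter were added after seeing the data. Counts of 4 to 48 reads a library for DOHH and GAMT limit the precision of both.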
